A study of Mus musculus with 12 samples.

Results

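The Kruppel-like factors (KLFs) are DNA-binding proteins that end in zinc fingers, and 10 of the mouse Klf genes are described here: Klf2, Klf3, Klf4, Klf5, Klf6, Klf7, Klf9, Klf10, Klf13 and Klf15. They were found by matching these symbols to the Ensembl identifiers of the count table, and all 10 were among its 55487 genes. RNA was sequenced from bone marrow-derived mesenchymal stromal cells (MSCs), the adherent precursors of bone, fat and stroma, in 3 groups of 4 samples. The MSCs were primary cells grown from the femurs of wild-type female C57BL/6 mice aged 6 to 8 weeks, expanded and frozen before use. Control MSCs (Negative in the labels) were untreated, A1-treated MSCs received 50 µM A1 for 6 h, and A1+OVA-treated MSCs received 50 µM A1 together with 1 mg/mL chicken ovalbumin (OVA) for 6 h. A1 is a variant of Accum, a bile acid linked to a nuclear localization peptide, and OVA is a model antigen. The medium shared by all groups held fetal bovine serum and antibiotics, and the label of the A1+OVA medium also names insulin. The methods do not state whether control MSCs received vehicle or fresh medium. If they did not, effects of vehicle, fresh medium and A1 cannot be told apart. No group received OVA alone, so that an effect of OVA could be read only on top of A1. If the A1+OVA medium did hold insulin, effects of insulin and OVA cannot be told apart between A1+OVA and A1. The labels do not say whether the 4 samples of a group came from separate mice or cultures, and p-values therefore measure the spread between these samples, which may be technical.

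KLFs bind GC-rich and CACCC sequences in promoters through zinc fingers that are much alike across the family, while the rest of each protein differs and recruits different partners. Klf2, Klf4, Klf5, Klf6 and Klf7 are mostly known as activators, Klf3 as a repressor that recruits CtBP, and Klf9, Klf10 and Klf13 as factors that recruit Sin3A and often repress. Several respond within hours to outside signals: Klf2 and Klf4 to fluid flow, Klf10 to TGF-β, Klf9 and Klf15 to glucocorticoids. In stromal precursors they are known for steering fat cell differentiation, which Klf5 and Klf15 promote and Klf2, Klf3 and Klf7 restrain.

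The zinc finger stretches show how alike the members are in this part of their coding sequence. Reads are counted over all exons of a gene, and reads that could match 2 members were not examined. In each of the 10 genes the coding sequence holds 3 zinc fingers over a stretch of 243 bases, from the first cysteine codon to the last histidine codon. The stretches are shown for Klf5 and Klf10, the tested members with the largest differences after A1, and for Klf6 and Klf7, the most alike pair, of which Klf6 passed the test and Klf7 did not. Capitals mark the 78 bases (32.1%) that are the same in all 10 members. The sequences are those of the GENCODE M21 transcripts on GRCm38, read 5′ to 3′ on the coding strand with introns removed. The Klf5 stretch lies in exons 2 to 4 of 4 of its transcript (chr14:99302242-99313320, plus strand), and the Klf10 stretch in exons 3 to 4 of 4 of its transcript (chr15:38295995-38296687, minus strand). The Klf6 stretch lies in exons 2 to 4 of 4 of its transcript (chr13:5865272-5867277, plus strand), and the Klf7 stretch in exons 2 to 4 of 4 of its transcript (chr1:64035719-64078779, minus strand).
Klf5: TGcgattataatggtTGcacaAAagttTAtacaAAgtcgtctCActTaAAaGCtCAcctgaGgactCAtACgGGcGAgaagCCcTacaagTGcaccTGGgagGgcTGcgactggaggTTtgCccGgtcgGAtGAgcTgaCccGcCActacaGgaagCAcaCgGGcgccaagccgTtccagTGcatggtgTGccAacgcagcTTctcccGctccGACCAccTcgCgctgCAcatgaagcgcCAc
Klf10: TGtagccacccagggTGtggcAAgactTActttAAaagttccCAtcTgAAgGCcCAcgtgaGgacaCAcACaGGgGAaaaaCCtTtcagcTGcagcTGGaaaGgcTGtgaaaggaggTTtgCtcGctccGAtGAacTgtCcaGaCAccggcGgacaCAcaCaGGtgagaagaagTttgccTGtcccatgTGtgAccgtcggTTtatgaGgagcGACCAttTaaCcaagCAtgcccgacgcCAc
Klf6: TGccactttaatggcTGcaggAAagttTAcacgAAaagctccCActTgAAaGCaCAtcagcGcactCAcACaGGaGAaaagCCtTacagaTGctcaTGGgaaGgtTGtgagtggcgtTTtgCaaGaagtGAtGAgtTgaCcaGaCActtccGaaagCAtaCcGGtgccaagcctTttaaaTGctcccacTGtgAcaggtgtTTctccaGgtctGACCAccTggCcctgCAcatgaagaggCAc
Klf7: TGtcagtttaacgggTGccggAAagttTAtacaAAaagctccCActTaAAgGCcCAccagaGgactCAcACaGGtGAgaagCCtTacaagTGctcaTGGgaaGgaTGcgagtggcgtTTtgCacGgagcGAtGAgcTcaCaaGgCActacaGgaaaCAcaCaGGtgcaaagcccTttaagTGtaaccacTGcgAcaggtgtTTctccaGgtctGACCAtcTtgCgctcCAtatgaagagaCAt
Klf6 and Klf7 were identical at 81.1% of the bases, the highest share among the 45 pairs of members, and Klf5 and Klf10 at 57.2%, the lowest share, at which Klf4 and Klf9 and Klf7 and Klf9 also stood. The median pair shared 64.2%, and Klf2 and Klf4 shared 78.2%. Between the annotated protein-coding transcripts of any 2 members, read on the coding strand, the longest exactly shared run was 26 bases. The shortest of these longest runs was 12 bases. Other transcripts of the members were not compared.

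The libraries held 15644991 to 16881995 gene counts in control, 13702348 to 14347870 in A1-treated and 14359973 to 16674294 in A1+OVA-treated MSCs. The members together held 10149 to 11968 of these counts in a sample. Levels are given as CPM, counts brought to a common library size after scaling by TMM, a normalization that assumes that most genes do not differ. All 9 MSC markers exceeded 3 counts in some sample. Their sum was 2440 to 2640 CPM in control, 3230 to 3450 in A1 and 3060 to 3290 in A1+OVA samples. The sum hides markers that went both ways, since from control to A1 the mean CPM went from 1450 to 2220 for Itgb1 and from 175 to 458 for Cd44, but from 247 to 125 for Pdgfra and from 226 to 117 for Vcam1. Thy1 (CD90) held 0 to 17 counts and Nt5e (CD73) at most 14 counts in any sample. Mean Thy1 was 0.267 CPM in control, 0.0542 CPM in A1 and 0.083 CPM in A1+OVA samples. Of 8 hematopoietic markers 5 exceeded 3 counts in some sample, at a summed 9.41 to 10.5 CPM in control, 12 to 14.7 in A1 and 10.7 to 13.1 in A1+OVA samples, with Cd14 as the main part, Ptprc (CD45) at most at 4 counts and Cd3e at 0. Endothelial markers summed to at most 0.916 CPM and epithelial markers to at most 0.795 CPM, with Epcam at 0. Of 5 adipocyte markers 4 exceeded 3 counts, mainly Fabp4, at a summed 64.2 to 70.5 CPM in control, 62.7 to 71.1 in A1 and 66 to 78.9 in A1+OVA samples, with Lep at 0. Of 5 osteoblast markers 2 exceeded 3 counts, at a summed 15.7 to 16.5, 9.95 to 13.5 and 10.6 to 11.6 CPM in the same order, with Ibsp at 0. The part of these levels in the results on the Klf genes was not tested.

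In control MSCs, Klf6 and Klf9 were the most abundant members and Klf5 and Klf15 the least. Levels were compared between genes as TPM, in which counts are divided by the summed exon length of each gene before scaling to a common total. Klf6 reached 190 ± 8.67 TPM in control MSCs (SD, n = 4), Klf9 100 ± 3.69, Klf3 53.1 ± 2.6 and Klf10 33.6 ± 0.511. Klf4 (25.5 ± 1.18), Klf7 (22.6 ± 1.63) and Klf2 (19.6 ± 2.21) followed, and the samples of neighbours in this order overlapped. Klf13 stood at 15.2 ± 0.533 TPM, Klf5 at 1.81 ± 0.486 and Klf15 at 0.702 ± 0.241. After A1 the place of Klf3 (41.8 TPM) and Klf10 (62.4 TPM) was exchanged, and it was the same after A1+OVA, with 43.1 and 46.7 TPM. The order among Klf6, Klf9 and the 2 lowest members was the same in all 3 groups. Klf3 depends on the length used, since its summed exons span 11243 bases and its longest transcript 5221 bases. With the longest transcript as length, Klf3 (87.1 TPM) lay above Klf9 (82.1 TPM) in control MSCs. It then also lay above Klf10 after A1, at 68.5 and 65.1 TPM, and after A1+OVA, at 70.5 and 48.7 TPM. The exchange of Klf3 and Klf10 was thus not seen with this length.

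**Figure D1:**
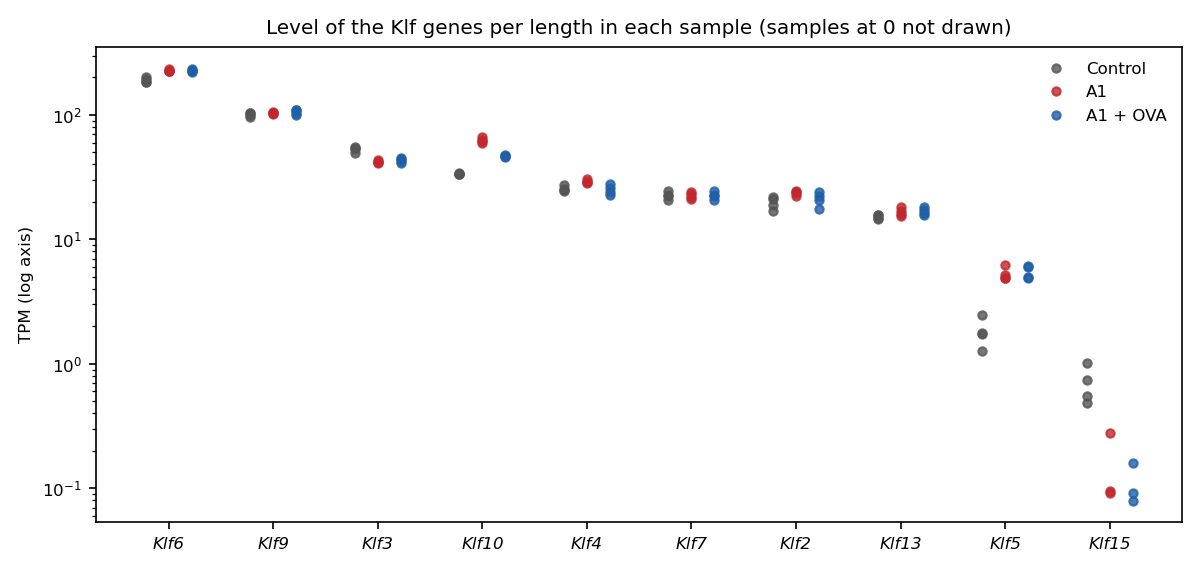
Each point is the level of a Klf gene in a sample, in TPM on a log axis, with control samples in gray, A1 in red and A1+OVA in blue, and genes in the order of the control mean. Samples at 0 TPM are not drawn, which leaves out Klf15 in A1 sample 1 and A1+OVA sample 3. Klf6 leads at 190 TPM in control MSCs and 228 TPM in both treated groups, whereas Klf5 moves from 1.81 TPM in control MSCs to 5.31 TPM after A1.

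As a share of the members' summed TPM, Klf6 held 41% ± 1.01 in control, 42.7% ± 0.205 in A1 and 44.3% ± 0.364 in A1+OVA samples (SD, n = 4 each). Klf10 held 7.27% ± 0.198, 11.7% ± 0.387 and 9.09% ± 0.217. Klf3 held 11.5% ± 0.273 in control MSCs, 7.85% ± 0.233 after A1 and 8.39% ± 0.358 after A1+OVA. For Klf3 and Klf10 the shares of the control samples were thus separated from those of both treated groups by more than their SDs. Other members were separated in this way too, such as Klf5 (0.393% ± 0.109, 0.994% ± 0.105 and 1.07% ± 0.108). A share depends on the other members as well. That of Klf9 was lower in the treated groups (21.7% ± 0.173, 19.4% ± 0.48 and 20.5% ± 0.655), although its CPM was higher. These shares carry no test.

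Genes were tested with edgeR's quasi-likelihood test on all 12 samples, over 11314 protein-coding genes that passed a filter on low counts, and a gene was called at an adjusted p-value under 0.05. Of the 10 members 9 passed the filter, and Klf15 did not. With A1, 7 of the 9 tested members were higher than in control MSCs (31.7% of all tested genes were called higher), 1 was lower (31.1% of all) and Klf7 was not called. The median log2 fold change was 0.29 over the 9 members and -0.00 over all tested genes. In either direction, 8 of 9 members were called (62.7% of all). The fold threshold, 0.5 in either direction on the log2 scale, was reached by 2 of the called members, Klf5 and Klf10, a share near that of all tested genes (21%). The 4 A1-treated samples did not overlap the 4 control samples for 8 of the 9 members (54.4% of all). With A1+OVA, 5 of the 9 members were higher (29.7% of all), 1 was lower (27.9% of all) and 3 were not called (57.6% of all were called), with a median of 0.18 over the members and 0.00 over all tested genes. Klf5 and Klf10 again reached the fold threshold, as did 17.7% of all tested genes, and 6 of the 9 did not overlap the control samples (49.4% of all). Both comparisons use the same 4 control samples and are not independent of each other. In cultures sequenced in bulk, more RNA of a gene per cell and more cells that express it cannot be told apart.

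**Figure D2:**
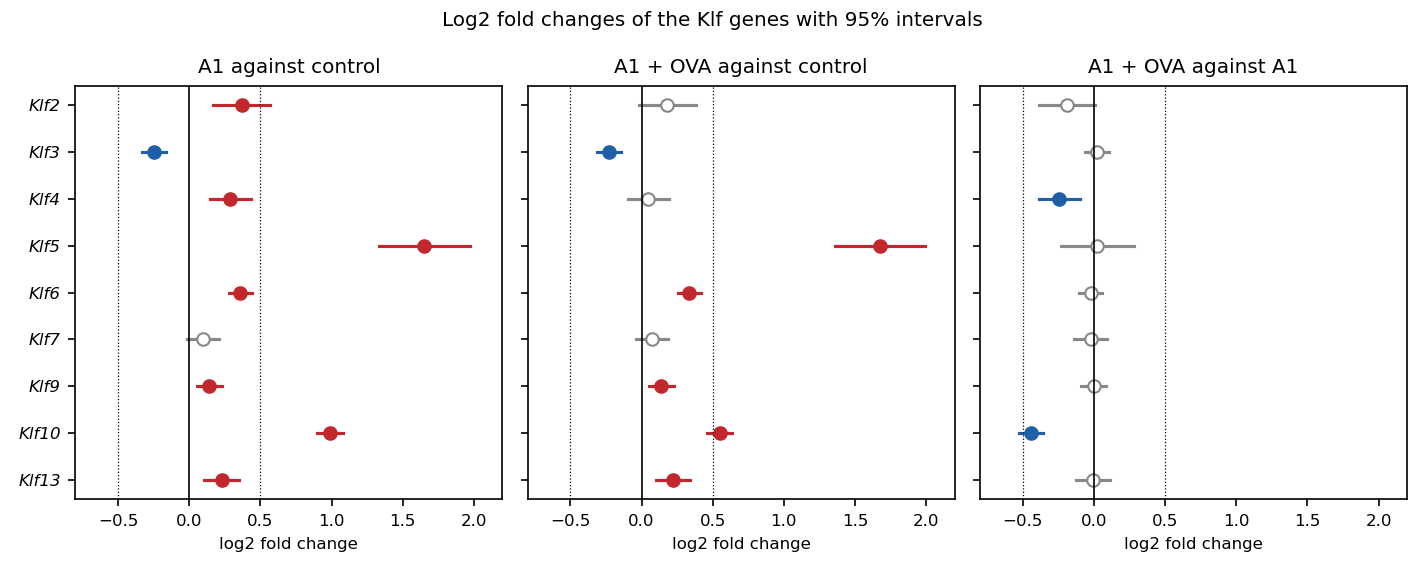
Points are log2 fold changes of the 9 tested members in the 3 comparisons, bars are 95% intervals of the fit, and dotted lines mark an absolute log2 fold change of 0.5. Red points were called higher, blue points lower and open gray points were not called. Klf5 (1.65) and Klf10 (0.99) lie farthest to the right after A1, and Klf10 (-0.44) farthest to the left between A1+OVA and A1.

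Klf5, an activator that drives proliferation and the early steps of fat cell differentiation, showed the largest difference of any tested member. It lies at chr14:99298691-99315036 on the plus strand (GRCm38; ENSMUSG00000005148). Its level was 2.54, 1.77, 3.40 and 2.38 CPM in control samples 1 to 4, on 30 to 55 counts. It was 7.74, 7.33, 7.41 and 9.15 CPM in the A1-treated samples and 9.13, 7.28, 8.65 and 7.27 CPM in the A1+OVA-treated samples. Every treated sample lay above every control sample, and the 2 treated groups overlapped. Klf5 rose 3.14-fold with A1 (log2 fold change 1.65, SE 0.153, adjusted p = 5.33e-09) and 3.19-fold with A1+OVA (log2 fold change 1.67, adjusted p = 3.32e-09). Of all tested genes, 1.94% had a larger absolute log2 fold change with A1 and 1.54% with A1+OVA. Between A1+OVA and A1 the log2 difference was 0.02, with a 95% interval from -0.23 to 0.28.

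Klf10, known as TGF-β-inducible early gene and a repressor that recruits Sin3A, was the member that set the 3 groups apart. It lies at chr15:38291463-38300706 on the minus strand (ENSMUSG00000037465). Control samples held 38.1, 37.5, 37.3 and 37.9 CPM, A1-treated samples 75.0, 73.7, 72.4 and 78.0 CPM, and A1+OVA-treated samples 55.2, 55.6, 55.7 and 54.0 CPM. No sample of a group reached the range of another group, and the A1+OVA samples lay between the other 2 groups. Klf10 rose 1.98-fold with A1 (log2 fold change 0.99, SE 0.0423, adjusted p = 1.46e-14) and 1.46-fold with A1+OVA (log2 fold change 0.55, adjusted p = 3.94e-10). It was 1.36-fold lower with A1+OVA than with A1 (log2 fold change -0.44, SE 0.041, adjusted p = 4.05e-07), and 3.95% of all tested genes had a larger absolute difference between these groups.

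**Figure D3:**
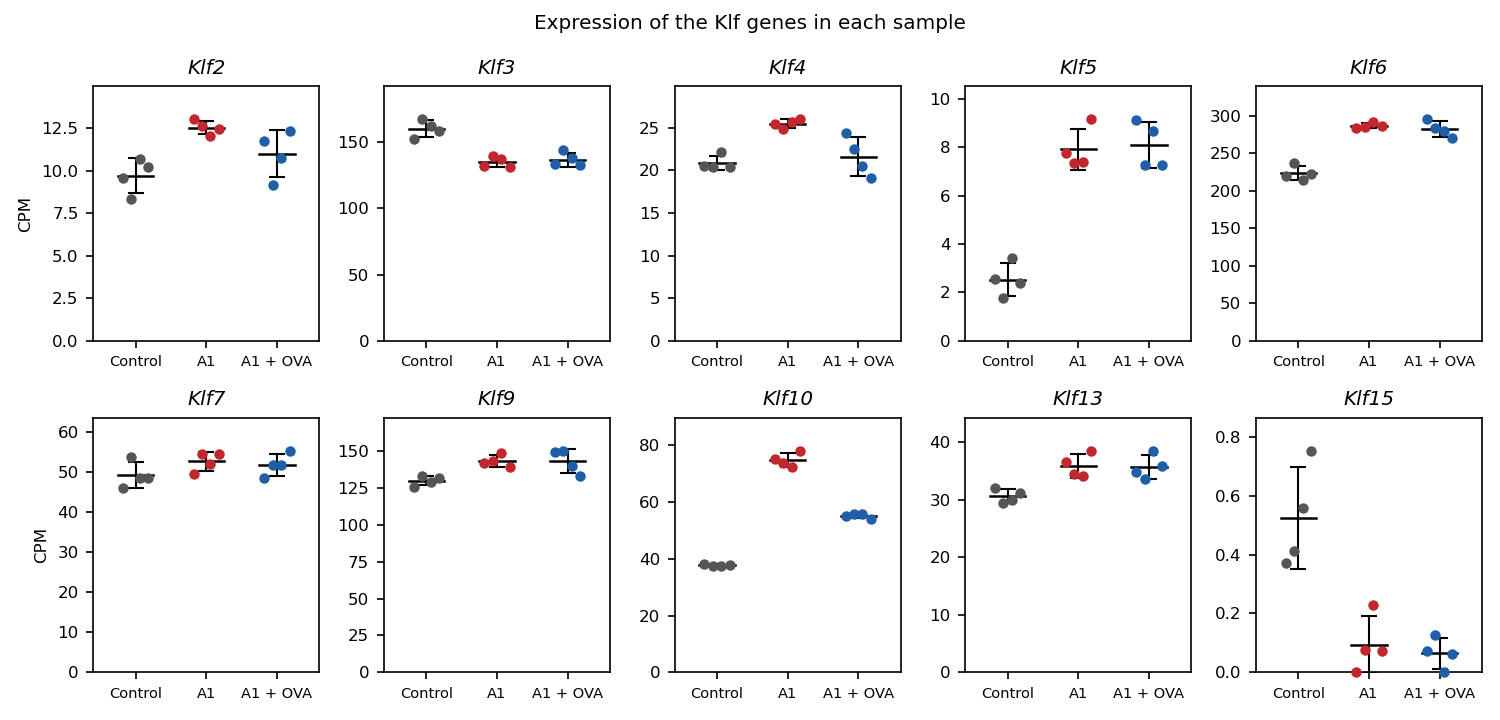
Points are CPM in each of the 4 samples per group, horizontal lines are means and bars are SDs, on axes that start at 0 and differ between genes. The 3 groups of Klf10 lie apart at means of 37.7, 74.8 and 55.1 CPM, Klf5 is at 2.52 CPM in control and 7.91 CPM in A1-treated samples, and Klf15 falls to 0 in some treated samples.

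Klf2 and Klf4, activators that keep endothelial cells quiescent, were both higher with A1 than in control MSCs. Klf2 lies at chr8:72319033-72321656 on the plus strand (ENSMUSG00000055148). It held 9.59, 8.33, 10.7 and 10.2 CPM in control, 13.0, 12.6, 12.1 and 12.4 CPM in A1-treated and 11.7, 9.18, 10.8 and 12.3 CPM in A1+OVA-treated samples. The A1-treated samples all lay above the control samples, whereas A1+OVA-treated samples overlapped both other groups. The log2 fold change of Klf2 was 0.37 with A1 (SE 0.0965, adjusted p = 0.00231) and 0.18 with A1+OVA, which was not called (adjusted p = 0.117, 95% interval -0.02 to 0.38). Without A1+OVA sample 2, the lowest of its group, the latter became 0.26 and passed (adjusted p = 0.0247). Between A1+OVA and A1 the difference of -0.19 was not called (adjusted p = 0.208, 95% interval -0.39 to 0.01).

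Klf4, which is also a factor of the pluripotency reprogramming cocktail, lies at chr4:55527143-55532466 on the minus strand (ENSMUSG00000003032). Control samples held 20.6, 20.4, 22.2 and 20.4 CPM, A1-treated samples 25.5, 24.8, 25.7 and 26 CPM, and A1+OVA-treated samples 24.4, 22.5, 20.5 and 19.1 CPM. The A1-treated samples lay above all others, and the A1+OVA-treated samples spread across and beyond the control range. Klf4 rose with A1 (log2 fold change 0.29, SE 0.0685, adjusted p = 0.001). With A1+OVA it was not called against control (0.05, adjusted p = 0.587, 95% interval -0.10 to 0.19), and it was lower than with A1 (log2 fold change -0.24, SE 0.0689, adjusted p = 0.024). That call was lost without A1 sample 4 (adjusted p = 0.0551), without A1+OVA sample 3 (adjusted p = 0.0691) or without A1+OVA sample 4 (adjusted p = 0.103).

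Sequence just before the start sites is shown for Klf2 and Klf4, the pair above, and for Klf15, the member with the fewest counts. The windows reach at most 250 bases before the RefSeq start (GRCm38.p6) and leave out annotated exons. Capitals mark matches, on either strand, to the GC box GGGCGG, the CACCC box CACCC and the MEF2 site. A GC box and a CACCC box may share letters at their ends, and neither contains the other.
Klf2 promoter, chr8:72318812-72319032, plus strand: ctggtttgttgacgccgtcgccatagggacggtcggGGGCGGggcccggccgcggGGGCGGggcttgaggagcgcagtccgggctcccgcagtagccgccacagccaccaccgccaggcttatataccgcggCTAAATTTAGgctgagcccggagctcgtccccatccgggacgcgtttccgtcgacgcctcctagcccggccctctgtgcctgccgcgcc
Klf4 promoter, chr4:55532476-55532725, minus strand: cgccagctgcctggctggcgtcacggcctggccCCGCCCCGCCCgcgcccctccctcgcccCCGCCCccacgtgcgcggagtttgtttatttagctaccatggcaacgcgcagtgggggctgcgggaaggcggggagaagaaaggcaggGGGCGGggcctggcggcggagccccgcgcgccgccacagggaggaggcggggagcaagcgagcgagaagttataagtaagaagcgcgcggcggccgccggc
Klf15 promoter, chr6:90462326-90462575, plus strand: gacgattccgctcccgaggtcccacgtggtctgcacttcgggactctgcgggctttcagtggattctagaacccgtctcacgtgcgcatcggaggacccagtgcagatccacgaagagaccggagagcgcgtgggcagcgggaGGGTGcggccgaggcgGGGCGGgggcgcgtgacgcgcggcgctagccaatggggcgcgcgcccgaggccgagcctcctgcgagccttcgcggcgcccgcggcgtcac
Start site windows from 250 bases before to 50 bases after the start were matched for 8 of the 10 members, not for Klf5 and Klf10. A GC box stood in 7 of these 8 windows, all but Klf9, and in 35.7% of the 32851 windows of all genes. A CACCC box stood in 6 of the 8, all but Klf4 and Klf6, and in 57.5% of all. That of Klf2 lies at -19 to -15 from the RefSeq start, in annotated exon bases left out of the sequence above. The MEF2 site stood in the window of Klf2 alone among the 8 and in 3.69% of all. The E-box CACGTG stood in the windows of Klf4, Klf6 and Klf15 and in 7.15% of all, and the AP-1 site TGANTCA in that of Klf9 and in 7.81% of all. The cyclic AMP response element TGACGTCA (1.79% of all), the CArG box (1.63%) and the TATA box TATAAA (13.6%) matched in 0 of the 8 windows. A match is a description of the letters in a window and shows no binding.

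Klf6, an early response gene of injured tissue, was the most abundant member. It lies at chr13:5861482-5870394 on the plus strand (ENSMUSG00000000078). Control samples held 219, 237, 215 and 223 CPM, A1-treated samples 284, 285, 291 and 287 CPM, and A1+OVA-treated samples 296, 284, 280 and 270 CPM. All treated samples lay above all control samples. Klf6 rose by a log2 fold change of 0.36 with A1 (SE 0.0382, adjusted p = 4.56e-08) and 0.34 with A1+OVA (adjusted p = 1.37e-07), and the treated groups differed by -0.02 (95% interval -0.10 to 0.06).

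Klf7, a neuronal regulator that also restrains fat cell differentiation, was the tested member that no comparison called. It lies at chr1:64029447-64122282 on the minus strand (ENSMUSG00000025959) with Mir6899 on the same strand. Control samples held 46.0, 53.8, 48.6 and 48.5 CPM, A1-treated samples 49.5, 54.5, 52.1 and 54.6 CPM, and A1+OVA-treated samples 48.6, 51.7, 51.8 and 55.3 CPM, so that the groups overlapped. The log2 fold change was 0.10 with A1 (adjusted p = 0.129, 95% interval -0.02 to 0.21) and 0.08 with A1+OVA (adjusted p = 0.245, 95% interval -0.04 to 0.19). Without control sample 2, the highest of its group, the value with A1 was 0.14 and passed (adjusted p = 0.0268). Whether Klf6 and Klf7 differ in their response was not tested.

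Klf3, the CtBP-recruiting repressor, was the 1 tested member called lower in treated than in control MSCs. It lies at chr5:64803388-64832901 on the plus strand (ENSMUSG00000029178), where C230096K16Rik overlaps it on the same strand, so that its count is uncertain to that extent. Control samples held 152, 167, 162 and 159 CPM, A1-treated samples 132, 139, 137 and 131 CPM, and A1+OVA-treated samples 133, 144, 138 and 132 CPM. All treated samples lay below all control samples. Klf3 fell by 0.25 on the log2 scale with A1 (log2 fold change -0.25, SE 0.04, adjusted p = 1.59e-05) and by 0.23 with A1+OVA (log2 fold change -0.23, adjusted p = 4.54e-05). Between the treated groups the difference was 0.02, with a 95% interval from -0.06 to 0.10.

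Klf9 and Klf13 share with Klf10 the Sin3A-recruiting end, and both showed small differences that were alike in the 2 treated groups. Klf9, induced by glucocorticoids and thyroid hormone, lies at chr19:23141226-23168134 on the plus strand (ENSMUSG00000033863) with Mir1192 on the same strand. It held 126, 133, 129 and 131 CPM in control, 141, 143, 149 and 139 CPM in A1-treated and 149, 150, 139 and 133 CPM in A1+OVA-treated samples. The log2 fold change was 0.14 with A1 (SE 0.0415, adjusted p = 0.00574) and 0.14 with A1+OVA (adjusted p = 0.00637). Every treated sample lay above every control sample, though by a narrow margin for A1+OVA sample 4, and scaling by library totals alone gave 0.06 (adjusted p = 0.199) and 0.07 (adjusted p = 0.119), under which neither call held, while upper-quartile scaling gave adjusted p = 0.0204 and 0.0165 and DESeq2 0.00737 and 0.0107. Klf13, a factor studied in lymphocytes and heart, lies at chr7:63886351-63938915 on the minus strand (ENSMUSG00000052040). It held 32.1, 29.5, 30.01 and 31.2 CPM in control, 36.7, 34.4, 34.1 and 38.5 CPM in A1-treated and 34.9, 33.7, 38.6 and 35.9 CPM in A1+OVA-treated samples. All treated samples lay above the control samples. Klf13 rose by a log2 fold change of 0.23 with A1 (SE 0.0578, adjusted p = 0.00182) and 0.22 with A1+OVA (adjusted p = 0.00236). Between the treated groups, the interval was -0.09 to 0.09 for Klf9 and -0.13 to 0.11 for Klf13.

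Klf15, a glucocorticoid-induced activator of amino acid breakdown genes, was at the limit of detection. It lies at chr6:90462576-90475238 on the plus strand (ENSMUSG00000030087). Control samples 1 to 4 held 6, 7, 9 and 12 counts, the A1-treated samples 0, 1, 3 and 1, and the A1+OVA-treated samples 1, 2, 0 and 1. Every control sample held more counts than any treated sample. Summed over the 4 samples and scaled to library size, A1-treated MSCs held 0.178 of the control level (5 against 34 counts, 95% interval 0.0544 to 0.458 for counting error only). A1+OVA-treated MSCs held 0.126 of it (4 against 34 counts, 95% interval 0.0324 to 0.353). The exact two-sided permutation test of the CPM gave p = 0.0286 in both comparisons, the smallest p that 4 against 4 samples allow. In an edgeR fit of 16071 genes without the filter on low counts, the log2 fold change was -2.39 with A1 (adjusted p = 0.000713) and -2.85 with A1+OVA (adjusted p = 0.000111). Between the treated groups the ratio of 0.706 had an interval from 0.14 to 3.28, and a difference was not detectable at this depth.

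Between A1+OVA and A1, 2 of the 9 tested members were called, Klf10 and Klf4, both lower, where 6.81% of all tested genes were called lower, 6.05% higher and 12.9% in either direction. For both genes the 4 A1+OVA samples lay below all A1 samples, and 18.1% of all tested genes did not overlap between these groups. Neither reached the fold threshold, which 1.2% of all tested genes did. The other 7 members were not called, with log2 differences from -0.19 for Klf2 to 0.02 for Klf5. The median absolute difference was 0.0233 over the 9 members and 0.0882 over all tested genes.

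**Figure D4:**
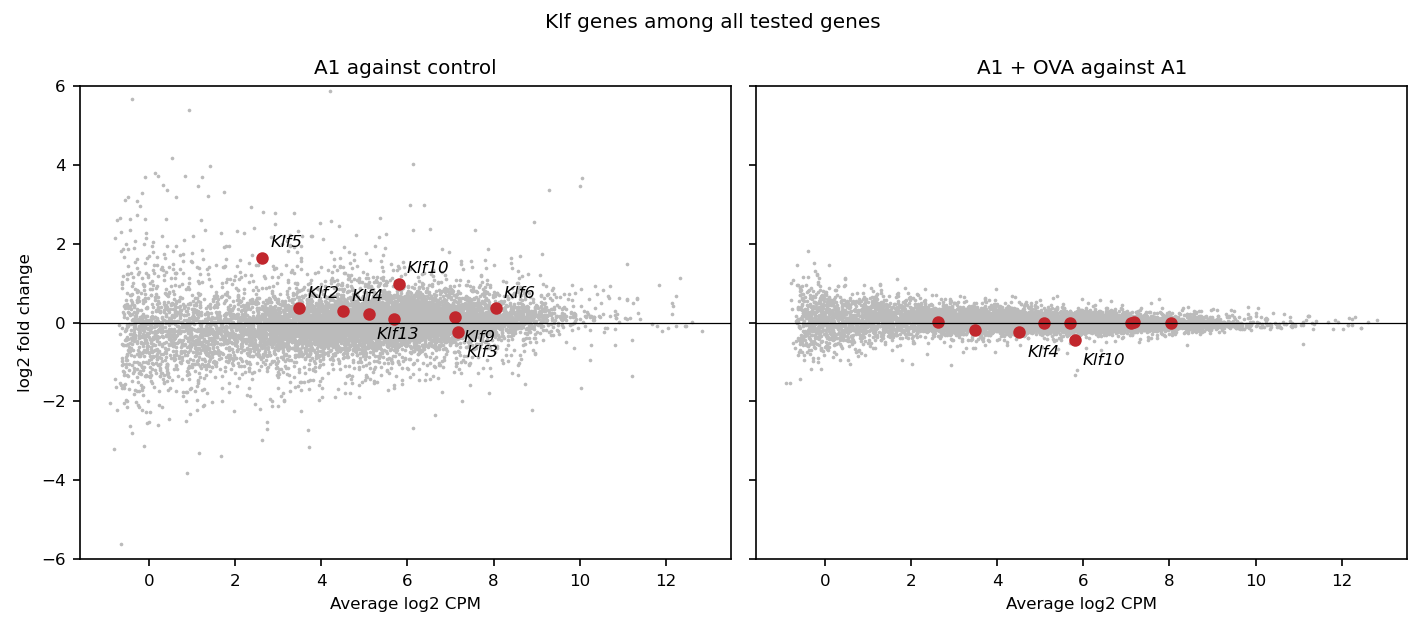
Gray points are all 11314 tested genes by average log2 CPM and log2 fold change, for A1 against control on the left and A1+OVA against A1 on the right, and red points are the 9 tested members, named where called. On the left Klf5 (1.65) and Klf10 (0.99) stand clear of the other members, and on the right Klf10 (-0.44) does.

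The genes whose profile over the 12 samples was closest to the 3 tested members with the largest fold changes with A1 (Klf5, Klf10 and Klf2) were found by the root mean square difference of centred log2 CPM, among 10404 genes. Closest to Klf5 were Chac1 (0.199), a glutathione-degrading enzyme of the unfolded protein response, Spsb1 (0.202), a subunit of a ubiquitin ligase, and Klhdc8a (0.205). Closest to Klf10 were Mybl2 (0.0809), a cell cycle transcription factor, Slc29a1 (0.0849), a nucleoside transporter, and St3gal4 (0.0946), a sialyltransferase. Closest to Klf2 were Ticrr (0.0766) and E2f7 (0.0768), both with roles in DNA replication and the cell cycle, and Anapc15 (0.0973), a subunit of the anaphase-promoting complex. The order follows from the pattern alone, and the distances are a description with no test.

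Of the 7 other Klf genes, 2 passed the filter. Klf16 was higher with A1 (20.6 ± 1.98 to 26 ± 1.38 CPM, SD, n = 4, log2 fold change 0.33, adjusted p = 0.000257) and with A1+OVA (0.42, adjusted p = 1.59e-05). Klf11, the closest relative of Klf10, stood at 11.6 ± 1.04 CPM in control and 11 ± 0.633 CPM in A1-treated MSCs and was not called (-0.07, adjusted p = 0.462), but was lower with A1+OVA (8.93 ± 0.419 CPM, log2 fold change -0.37, adjusted p = 0.000752). Klf12, Klf14 and Klf17 held 0 counts in every sample, and Klf1 and Klf8 at most 4. The Sp genes encode relatives that bind the same GC boxes, and 5 of 9 were tested. With A1, 0 were higher (31.7% of all tested genes) and 2 lower (31.1% of all), Sp8 (log2 fold change -0.37, adjusted p = 0.00546) and Sp3 (-0.21, adjusted p = 0.000459), with a median of -0.15. With A1+OVA 0 were higher (29.7% of all) and 5 lower (27.9% of all), at a median of -0.26.

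The ERK5 and MEF2 genes form the route by which flow induces Klf2 and Klf4, and 6 of 8 were tested. With A1, 3 were higher and 1 lower, against 31.7% and 31.1% of all tested genes. The transcription factors Mef2d (log2 fold change 0.48, adjusted p = 1.25e-07) and Mef2a (0.22, adjusted p = 7.85e-05) and the kinase Map3k3 (0.29, adjusted p = 1.63e-05) rose, and the kinase Map2k5 fell (-0.17, adjusted p = 0.0206). Mapk7, which encodes ERK5 itself, was not called at -0.02 (adjusted p = 0.847).

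Of the corepressor genes that KLFs are known to recruit, 8 are described here, all tested. With A1, 0 were higher (31.7% of all tested genes), 3 were lower (31.1% of all) and 5 were not called (62.7% of all were called). Hdac3 (log2 fold change -0.39, adjusted p = 5.58e-08), Ncor1 (-0.30, adjusted p = 3.83e-06) and Hdac1 (-0.14, adjusted p = 0.00924) fell. The partners of Klf3 and Klf10 were not called, at 0.07 for Ctbp1, 0.12 for Ctbp2, -0.03 for Sin3a and 0.08 for Sin3b (adjusted p = 0.127, 0.0549, 0.606 and 0.135). Of 4 coactivators 1 was higher (31.7% of all) and 2 were lower (31.1% of all). The acetyltransferase gene Kat2a rose (0.23, adjusted p = 0.000157), and Kat2b (-0.54, adjusted p = 8.37e-09) and Ep300 (-0.26, adjusted p = 0.00246) fell. Of 7 ubiquitin ligase genes that act on KLF proteins, 2 were higher and 2 lower, near the same shares of all tested genes. Fbxo32 (0.59, adjusted p = 8.37e-09) and Smurf1 (0.32, adjusted p = 9.48e-07) rose, and Smurf2 (-0.37, adjusted p = 3.74e-08) and Vhl (-0.14, adjusted p = 0.0247) fell. With A1+OVA, 29.7% of all tested genes were called higher and 27.9% lower. The counts of higher and lower genes were then 1 and 2 among these 8 corepressors, 1 and 2 among the 4 coactivators and 2 and 2 among the 7 ligases.

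The glucocorticoid-responsive genes, to which Klf9 and Klf15 belong by their regulation, were tested for 9 of 11 genes. With A1, 5 were higher (31.7% of all tested genes) and 2 lower (31.1% of all), and their median was 0.50 on the log2 scale. The largest were Errfi1 (1.37, adjusted p = 2.06e-17), Sgk1 (1.19, adjusted p = 3.43e-14), Fkbp5 (0.90, adjusted p = 1.72e-13) and Mt2 (0.59, adjusted p = 3.54e-06). Tsc22d3 (-0.26, adjusted p = 0.00288) and Per1 (-0.30, adjusted p = 0.0399), which glucocorticoids also induce, were lower, and the receptor gene Nr3c1 was not called (0.05, adjusted p = 0.261). With A1+OVA 5 were higher (29.7% of all) and 1 lower (27.9% of all), at a median of 0.45.

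Among genes that act with KLFs in fat cell differentiation, 8 of 10 were tested, and 3 were higher and 2 lower with A1, near the shares of all tested genes (31.7% and 31.1%), around a median of 0.00. Egr2, an upstream early factor, rose from 1.45 ± 0.31 to 7.39 ± 0.959 CPM (SD, n = 4, log2 fold change 2.33, adjusted p = 4.72e-11), and Gata2 rose by 0.39 (adjusted p = 0.00729). Cebpa, a driver of late differentiation, fell (-1.01, adjusted p = 2.77e-12), as did Gata3 (-1.28, adjusted p = 0.000105), and Pparg, the receptor that Klf5 activates, was not called (-0.01, adjusted p = 0.93). With A1+OVA, 2 were higher (29.7% of all) and 2 lower (27.9% of all). Like Klf10, Egr2 was lower with A1+OVA than with A1 (log2 fold change -1.06, adjusted p = 2.53e-05). In that comparison 0 genes of this list were higher (6.05% of all), 1 was lower (6.81% of all) and 7 were not called. Named genes of other lists went both ways there. Edn1 (0.86, adjusted p = 5.46e-06) and Mt2 (0.65, adjusted p = 8.57e-06) were higher, and Errfi1 (-0.49, adjusted p = 3.22e-08) and Sgk1 (-0.32, adjusted p = 0.000387) were lower.

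Of 10 genes listed as Klf15 targets around amino acid breakdown, 8 were tested. With A1, 0 were higher (31.7% of all tested genes) and 5 lower (31.1% of all), and their median was -0.39 on the log2 scale. The acyl-CoA dehydrogenase genes Ivd (-0.84, adjusted p = 2.4e-05) and Acadsb (-0.69, adjusted p = 2.71e-11) and the branched-chain ketoacid dehydrogenase subunit genes Bckdha (-0.45, adjusted p = 0.000157) and Bckdhb (-0.42, adjusted p = 5.97e-05) were the 4 largest. The other gene called lower, Bckdk (-0.35, adjusted p = 5.8e-05), encodes a kinase that restrains this ketoacid dehydrogenase, so that the list does not share 1 direction of function. With A1+OVA 1 was higher (29.7% of all) and 4 were lower (27.9% of all), at a median of -0.14, and Bckdhb was not called (-0.06, adjusted p = 0.47). Of 8 genes known as targets of Klf2 and Klf4 in endothelium, 5 were tested, and 3 were higher (31.7% of all) and 2 lower (31.1% of all) with A1. Cdkn1a (0.51, adjusted p = 1.21e-07) and Edn1 (0.51, adjusted p = 0.000421), which Klf2 is known to repress in endothelium, rose. Adamts1 (-1.41, adjusted p = 6.17e-15) and Vcam1 (-0.95, adjusted p = 4.74e-15), an adhesion molecule that Klf2 also represses there, fell. Thbd and Nos3, the best known endothelial targets, held at most 1 and 5 counts in any sample. With A1+OVA, 3 were again higher (29.7% of all) and 2 lower (27.9% of all).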

How the data were processed

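Total RNA of 12 MSC samples was made into strand-specific poly(A) libraries and sequenced in pairs. The authors aligned the reads to GRCm38 with STAR 2.7 and counted them per gene with featureCounts 2.0, as the submitters' processing notes and the methods state, and deposited raw counts, which had not been normalized or filtered. The authors' own fold changes were not used.

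Symbols, biotypes, positions and lengths came from GENCODE M21 on GRCm38, which holds 99.53% of the identifiers. Protein-coding genes (21974) were filtered with filterByExpr, scaled by TMM and tested with edgeR 4.0.16 in R 4.3.3, in a fit of all 12 samples, with Benjamini-Hochberg adjustment over 11314 genes. The log2 CPM used for likeness took a prior count of 2 and genes with a mean of at least 1. Levels up to 3 counts were taken as not detected. Intervals on counts are exact and cover counting error only. Total counts per sample ran from 13702348 to 16881995, and 4 samples per group limit the precision.

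The Klf genes and the gene lists were chosen with earlier results of these data known. Some genes of the lists are not reported here. All members were described, and of each other list the text names at most the 4 called genes with the largest change with A1. Mapk7, Ctbp1, Ctbp2, Sin3a, Sin3b, Nr3c1, Tsc22d3, Per1, Pparg, Bckdk, Thbd, Nos3, Klf11 and the genes given with A1+OVA values were added after their values were seen. Alternatives were upper-quartile normalization, DESeq2 1.42.0, other filters, all genes, only the groups compared, a replicate block, a fold threshold of 1, each sample left out, another gene length, and library totals alone, the last chosen after seeing the data. The tests were tested on simulated data. The variance between replicates of a group was 2.18 to 9 times that of counting, and each sample was counted as 1 replicate.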

Additional observations from a re-analysis of the deposited data

Results flagged for a closer look

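Klf4 was flagged in control MSCs because control sample 3 (22.2 CPM) stood apart from the other 3 samples, whose nearest value was 20.5 CPM and whose farthest was 20.4 CPM. Its gap to the nearest sample was 0.912 of the whole range of the group, above the 95% critical value of Dixon's test for 4 samples. Among 30 sets of samples checked this way, chance flags about 1 in 20.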

How the results depend on the processing

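The direction and call of Klf3, Klf5, Klf6, Klf10 and Klf13 against control were the same under every alternative run. An absolute log2 fold change threshold of 1 in place of 0.5 left 745 of 2372 genes past it with A1, 590 of 2004 with A1+OVA and 16 of 136 between A1+OVA and A1, and 1 member of 2 in each comparison with control. Without the filter on low counts, 2 members were lower in place of 1 in each comparison with control, since Klf15 was added. With library totals alone, Klf9 was not called with A1 (0.06) or A1+OVA (0.07), 1 member was past the fold threshold with A1+OVA, and 3 values that were not called changed sign, Klf4 with A1+OVA (-0.019) and Klf9 (0.014) and Klf13 (0.0074) between A1+OVA and A1. The share of called genes that were higher then moved from 50.5% to 37.4% with A1, from 51.5% to 39% with A1+OVA and from 47.1% to 57.7% between A1+OVA and A1. Upper-quartile normalization also turned the sign of Klf9 between A1+OVA and A1 (0.0053). The cause was not tested. Leaving out each sample in turn gave 1 to 2 members lower between A1+OVA and A1, where Klf4 ranged from -0.30 to -0.19, and moved values around 0 that were not called: Klf4 with A1+OVA (-0.012 to 0.10), and between A1+OVA and A1 Klf3 (-0.0052 to 0.036), Klf5 (-0.036 to 0.10), Klf7 (-0.055 to 0.0071), Klf9 (-0.025 to 0.033) and Klf13 (-0.045 to 0.024). Deviations of samples with the same replicate number correlated at 0.0215 on average over 12 pairs (-0.132 to 0.156). Over 36 pairs with different numbers the average was -0.00704, and 4 of the 12 samples correlated best with their own number. No clear pairing by number was seen, which does not show that the samples were unpaired. The replicate block called 7134 genes with A1 in place of 7098, 6580 in place of 6518 with A1+OVA and 1488 in place of 1455 between A1+OVA and A1, and changed no call on a member.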
